A study of Mus musculus with 15 samples.

Results

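Blood vessels, lymphatic vessels and the pericytes that wrap small vessels were followed in uterine epithelium RNA through a set of 33 genes. The members are all genes whose symbol is on a fixed list of 27 endothelial and 6 pericyte genes, in every table that lists them, out of 28269 genes and unnamed transcripts listed in the tables of the series. Endothelial cells line all vessels and are held together by adhesion proteins such as VE-cadherin. They respond to vascular endothelial growth factors and angiopoietins through receptor tyrosine kinases. Pericytes sit on capillaries and small venules, depend on platelet-derived growth factor receptor beta and help to stabilise the vessel. In the uterus, vessels run in the stroma beneath the epithelium and around the glands, and the epithelium itself holds none.

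RNA was sequenced from epithelium of mouse uterus on day 4, with 3 libraries in each of 5 groups. Luminal epithelium (LE, the lining of the cavity) and glandular epithelium (GE, the glands) were taken from WT mice, titled Ctrl, and from E-OEX mice, whose genotype label is "overexpress Notch1". U-OEx mice carry the same genotype label and gave LE libraries alone. Notch1 encodes a receptor for membrane-bound ligands on neighbouring cells. The labels used here do not give the meaning of E-OEX and U-OEx, the promoter or Cre line behind the overexpression, the age of the mice, or whether animals were pooled. Nothing in them says that the 3 libraries of a group came from separate mice, so the p-values measure the spread between these libraries, which may be technical.

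The deposited numbers, called scaled reads here, equal whole reads over a constant that is fixed within each library. The WT tables list 6414 entries, chosen for a difference of at least 2-fold between GE and LE, and the E-OEX tables list 4903 chosen in nearly the same way, while the U-OEx tables list 27946. The listed genes together held 1980800 to 4797424 reads per library in WT and E-OEX, and 13541644 to 14981505 in U-OEx. Notch1 itself was analysed in U-OEx LE alone, at 2913, 3524 and 2789 scaled reads, so the genotype labels could not be checked against it. Cdh1, the epithelial cadherin, was abundant in every group, from 5522 in a library of E-OEX GE to 21139 in a library of WT LE. The GE libraries also carried abundant RNA of stromal fibroblast markers, which goes beyond what the label glandular epithelium states: 12 of these genes summed to 34281 to 106672 scaled reads in WT GE and 83183 to 92129 in E-OEX GE, against 289 to 6254 in WT LE and 504 to 2243 in E-OEX LE. In bulk samples like these, fewer cells of a type and less RNA per cell cannot be told apart.

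Of the 33 members, 32 are listed in the WT tables, 29 in the E-OEX tables and all 33 in the U-OEx tables. Clec14a, a surface lectin of endothelium, was analysed in U-OEx LE alone, where it stood at 73.5, 53.3 and 49.0 scaled reads. Flt1, Tek and Angpt2 were not analysed in E-OEX, where only genes chosen for a difference between GE and LE are listed. The other 29 were analysed in all 5 groups, namely the surface and adhesion proteins Pecam1, Cdh5, Esam, Emcn, Cd34, Cd93, Adgrl4, Ecscr and Plvap, the receptors and their regulators Kdr, Flt4, Tie1, Ptprb, Eng and Aplnr, the secreted proteins Vwf, Mmrn1, Mmrn2 and Egfl7, the intracellular proteins Erg, Rasip1 and Nos3, the lymphatic marker Lyve1, and the pericyte genes Rgs5, Abcc9, Pdgfrb, Cspg4, Higd1b and Ndufa4l2.

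Promoters are shown for 5 members, to let the reader see the upstream DNA of genes without a read in E-OEX LE (Rgs5, Emcn, Adgrl4) and of the receptor genes that were high in U-OEx LE (Flt1, Tek). Abcc9 also had no read in E-OEX LE and has a promoter window, which is not printed. RefSeq gives a promoter window of 250 bases before to 50 bases after the start site, on build GRCm38.p6, for 17 of the 33 members. The 250 bases upstream of the start site are printed 5′ to 3′ in the direction of the gene. Capitals mark CAGGAA or CCGGAA, the core of sites for ETS factors such as Erg, on either strand, so that a match on the other strand reads TTCCTG or TTCCGG. The regions are chr1:169655251-169655500 (plus strand), chr3:137340828-137341077 (plus strand), chr3:151437632-151437881 (plus strand), chr4:94739039-94739288 (plus strand) and chr5:147726012-147726261 (minus strand).
Rgs5: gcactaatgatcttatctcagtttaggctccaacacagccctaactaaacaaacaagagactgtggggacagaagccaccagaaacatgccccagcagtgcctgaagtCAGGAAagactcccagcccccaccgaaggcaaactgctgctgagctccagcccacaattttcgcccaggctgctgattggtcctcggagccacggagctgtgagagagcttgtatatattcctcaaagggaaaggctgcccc
Emcn: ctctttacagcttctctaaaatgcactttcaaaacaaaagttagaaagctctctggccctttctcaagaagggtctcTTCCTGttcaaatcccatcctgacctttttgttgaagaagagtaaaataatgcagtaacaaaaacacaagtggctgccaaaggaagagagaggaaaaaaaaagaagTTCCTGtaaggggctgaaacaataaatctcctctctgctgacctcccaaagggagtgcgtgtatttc
Adgrl4: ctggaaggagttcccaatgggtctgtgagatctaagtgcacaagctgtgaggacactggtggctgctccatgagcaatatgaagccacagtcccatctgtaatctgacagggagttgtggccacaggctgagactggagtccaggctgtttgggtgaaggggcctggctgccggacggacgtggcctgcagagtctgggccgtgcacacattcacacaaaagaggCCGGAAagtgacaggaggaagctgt
Tek: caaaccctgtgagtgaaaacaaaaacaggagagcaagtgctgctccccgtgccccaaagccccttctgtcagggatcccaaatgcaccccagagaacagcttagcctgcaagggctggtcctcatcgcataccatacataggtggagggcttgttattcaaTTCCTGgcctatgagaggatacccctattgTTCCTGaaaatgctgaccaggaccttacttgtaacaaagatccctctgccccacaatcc
Flt1: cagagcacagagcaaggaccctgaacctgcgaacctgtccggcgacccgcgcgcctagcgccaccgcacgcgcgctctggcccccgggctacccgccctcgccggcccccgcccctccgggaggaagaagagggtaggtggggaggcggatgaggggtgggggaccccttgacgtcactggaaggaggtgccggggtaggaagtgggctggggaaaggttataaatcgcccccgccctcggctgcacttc

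In the window that includes the 50 bases after the start, 14 of 17 member promoters (82.4%) held an ETS core on either strand, against 41.4% of all 27025 promoters of the same length, 1 per gene symbol. The exceptions were Erg, Flt1 and Flt4. TGGGAA, the core bound by RBPJ, the DNA-binding partner of Notch, was in 6 of 17 (35.3%) against 25.5% of all promoters. AGATAA, the core read by GATA factors, was in 2 of 17 (11.8%, Rgs5 and Tek) against 11.4%. The same 6 letters can never match more than 1 of these cores, though neighbouring matches may overlap. These are letter matches in 1 window and are not shown to be binding sites.

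**Figure D1:**
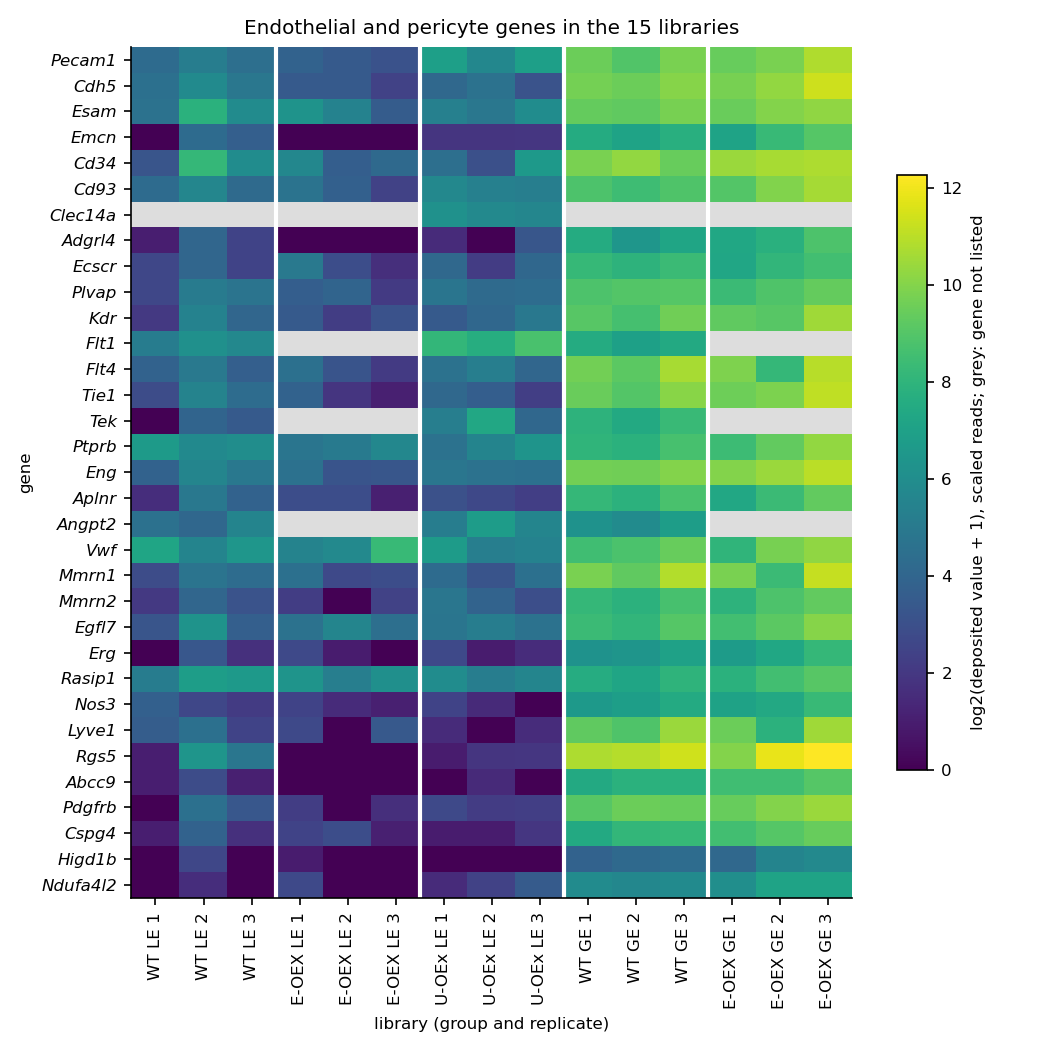
Each row is 1 of the 33 genes and each column 1 of the 15 libraries, and the colour gives log2(deposited value + 1) in scaled reads, with grey where a table does not list the gene. The 6 GE columns at the right are brighter than the LE columns for most rows, and Rgs5 reaches 4957 in E-OEX GE replicate 3 and is at 0 in all E-OEX LE libraries.

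The members were a small share of RNA and a far larger one in GE than in LE. They took 0.338% to 0.536% of the reads in listed genes in WT GE and 0.0106% to 0.0317% in WT LE, and 0.477% to 1.1% in E-OEX GE against 0.0178% to 0.0228% in E-OEX LE. In U-OEx LE the share was 0.00769% to 0.00955%, of a longer gene list. Compared per kilobase of exon, the most abundant member in WT GE was Rgs5, a regulator of G protein signalling in pericytes, at 463 scaled reads per kb, followed by Lyve1 (278.9), Plvap (251) and Esam (249.5). In E-OEX GE, Rgs5 (711), Cdh5 (373) and Eng (364) led. In WT LE, Esam (36.6), Rasip1 (25.4) and Cd34 (16.2) led, and in E-OEX LE Rasip1 (19.5), Esam (15.2) and Egfl7 (8.61). In U-OEx LE, Flt1 (22.7), Angpt2 (17.2), Pecam1 and Tek (15.5 each) came first. In WT LE the 3 libraries of 1 member often spanned more than the gap between neighbours in this order: Esam stood at 23.8, 230.4 and 60.4 scaled reads, and Cd34 at 8.29, 284 and 62.6.

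All 32 members listed for WT were higher in GE than in LE, with a median log2 difference of 4.81 (median of all listed genes 1.36). All 29 listed for E-OEX were also higher in GE, with a median of 6.41 (all genes 1.75). The tables were built by selecting for this contrast, and 97% of listed WT genes and 91.6% of listed E-OEX genes passed the test for it, 56.6% and 61.5% with GE higher, so these are descriptions of the selected values. LE was higher in the test for 40.5% of listed WT genes and 30.1% of listed E-OEX genes. The 3 GE values lay above the 3 LE values for all 32 members in WT and for 28 of 29 in E-OEX, where Vwf overlapped, against 55.9% of listed WT genes and 60.5% of listed E-OEX genes, with the opposite order in 40% and 29.4%. Rgs5 was the member furthest apart in both genotypes. It stood at 1743, 1902 and 2668 scaled reads in WT GE and at 1.04, 83.0 and 26.8 in WT LE, a log2 difference of 6.94. In E-OEX GE it stood at 1028, 3709 and 4957, and no E-OEX LE library held a read of it, which against a floor of 3 reads per library is at least 1114-fold higher in GE. Abcc9, a subunit of the potassium channel of pericytes and smooth muscle, Emcn, a sialomucin of capillaries and venules, and Adgrl4, an adhesion receptor of endothelium, were also at 0 in all E-OEX LE libraries, and were at least 143-, 112- and 95.9-fold higher in E-OEX GE.

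The members with the smallest distance between the epithelia were Rasip1, a Ras-interacting protein of vessel lumen formation (log2 1.40 in WT and 2.58 in E-OEX), Vwf, the clotting factor stored in endothelium (2.50 and 2.81), and Ptprb, the phosphatase that restrains Tie2 (2.01 and 4.20). Angpt2, the Tie2 ligand released by endothelium, and Flt1, the receptor that binds VEGF-A tightly, differed by 1.58 and 1.62 in WT. Flt1 stood at 184, 124 and 175 scaled reads in WT GE and at 35.2, 70.7 and 52.5 in WT LE. Stromal fibroblast markers were higher in GE in 12 of 12 WT genes (median log2 5.18) and 14 of 14 E-OEX genes (6.27), and smooth muscle markers in 10 of 10 (4.51) and 12 of 12 (6.33). Epithelial markers had a median of -1.63 in WT and -1.28 in E-OEX. The part of these other cell types in the members' difference was not tested.

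**Figure D2:**
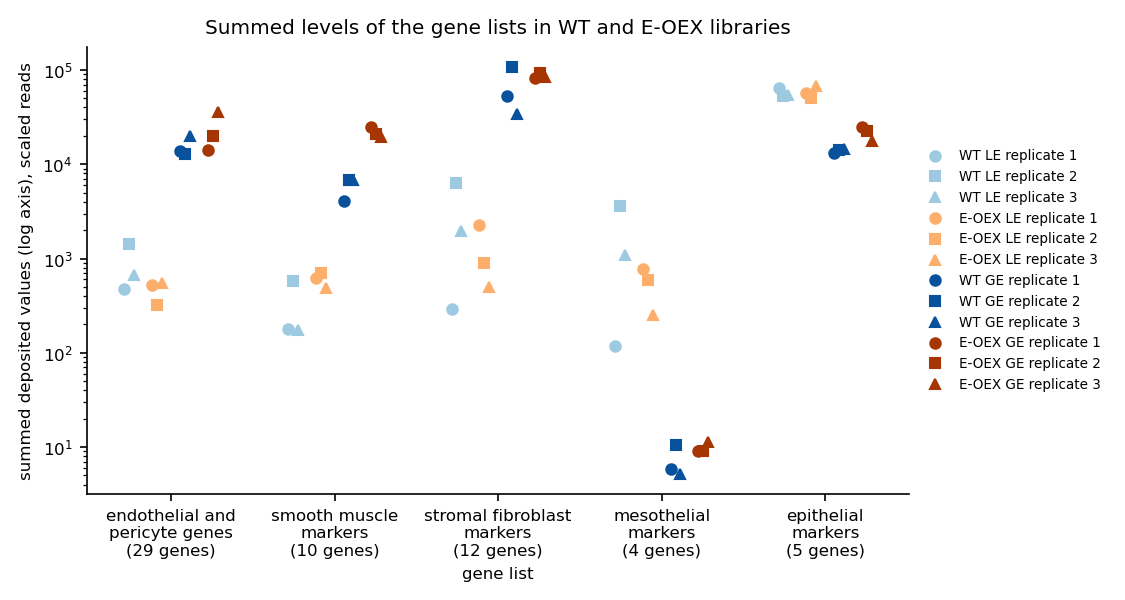
Points are single libraries and show the summed deposited values, on a log axis, of 29 endothelial and pericyte genes and of marker lists for 4 other cell types in WT and E-OEX. The members, the smooth muscle and the stromal fibroblast lists are higher in all 6 GE libraries than in all 6 LE libraries, and the mesothelial and epithelial lists are lower.

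The comparison of E-OEX GE with WT GE asks whether vessel RNA in the gland samples differed with Notch1 overexpression. It rests on reads rescaled together, since the tables of the genotypes were scaled separately. None of the 29 members passed the test (limma, Benjamini-Hochberg adjusted over 2851 genes), where 23.5% of all genes did (9.72% of all genes higher and 13.8% lower). None had an unadjusted p under 0.05 either, and edgeR and DESeq2 also called 0, where they called 649 and 758 of all 2851 genes. The median log2 difference was 0.20, against 0.05 for all genes, and single members ranged from -0.67 (Lyve1) to 0.71 (Ptprb). Without E-OEX GE replicate 3 the median was -0.13, and without WT GE replicate 2 it was 0.01.

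By role, the 9 adhesion and surface proteins ranged from -0.66 (Ecscr) to 0.64 (Cd93), the 6 receptors and regulators from -0.61 (Flt4) to 0.71 (Ptprb), the 4 secreted proteins from -0.65 (Mmrn1) to 0.31 (Egfl7), the 3 intracellular proteins from 0.11 (Nos3) to 0.44 (Rasip1) and the 6 pericyte genes from -0.10 (Rgs5) to 0.61 (Cspg4). Only 2 members had values in the E-OEX libraries that did not overlap those of WT, where 18.6% of all genes did so upward and 21.9% downward. Plvap, which forms the diaphragms of fenestrated endothelium, stood at 319, 429 and 516 in E-OEX GE and 575, 586 and 641 in WT GE (log2 -0.54, SE 0.25, limma adjusted p = 0.162). Abcc9 stood at 344, 319 and 411 against 220.1, 262 and 279.2 (log2 0.50, SE 0.25, limma adjusted p = 0.183). On the deposited scale, which moves the median of all genes from 0.05 to 0.50, the pericyte genes Abcc9 and Cspg4 were called higher. On that scale 789 of all 2852 genes were called in either direction. Without E-OEX GE replicate 1, Cd93, a lectin-like receptor of endothelium, and Ptprb were called higher.

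The 3 members best known from lymphatic vessels overlapped between the genotypes, with a wide spread over libraries. Flt4, the receptor for VEGF-C, stood at 920, 256 and 1578 in E-OEX GE and 1015, 666 and 1963 in WT GE. Mmrn1, a secreted multimerin, stood at 856, 291 and 1810 against 1096, 706 and 2251, and Lyve1, the hyaluronan receptor of lymphatic endothelium, at 702, 211 and 1154 against 761, 546 and 1658. In each case E-OEX GE replicate 2 was the lowest of the 6 libraries, and the other libraries of both genotypes overlapped. Prox1, the transcription factor of lymphatic identity, and Reln, secreted by lymphatic endothelium, were lowest in the same library, at 138 (others 248.8 to 684) and 184 (others 592 to 2232). Both were picked after their values were seen, from a list whose other genes, Ccl21a among them, are not given by GE library here. Cdh5, VE-cadherin, which blood and lymphatic endothelium share, was not low in E-OEX GE replicate 2: it stood at 822, 1120 and 2026 in E-OEX GE. The 20 other endothelial members, Cdh5 included, summed to 8758, 12006 and 17703 in E-OEX GE and to 10778, 9058 and 13581 in WT GE. How many of these 20 were lowest in E-OEX GE replicate 2 was not counted. The summed value of Flt4, Mmrn1 and Lyve1 was 6.31% of that of the 20 other endothelial members in E-OEX GE replicate 2, against 28.3% and 25.7% in the other E-OEX GE libraries and 21.2% to 43.2% in WT GE. With that library left out, the log2 differences of Flt4, Mmrn1 and Lyve1 changed from -0.61, -0.65 and -0.67 to 0.13, 0.05 and 0.03.

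**Figure D3:**
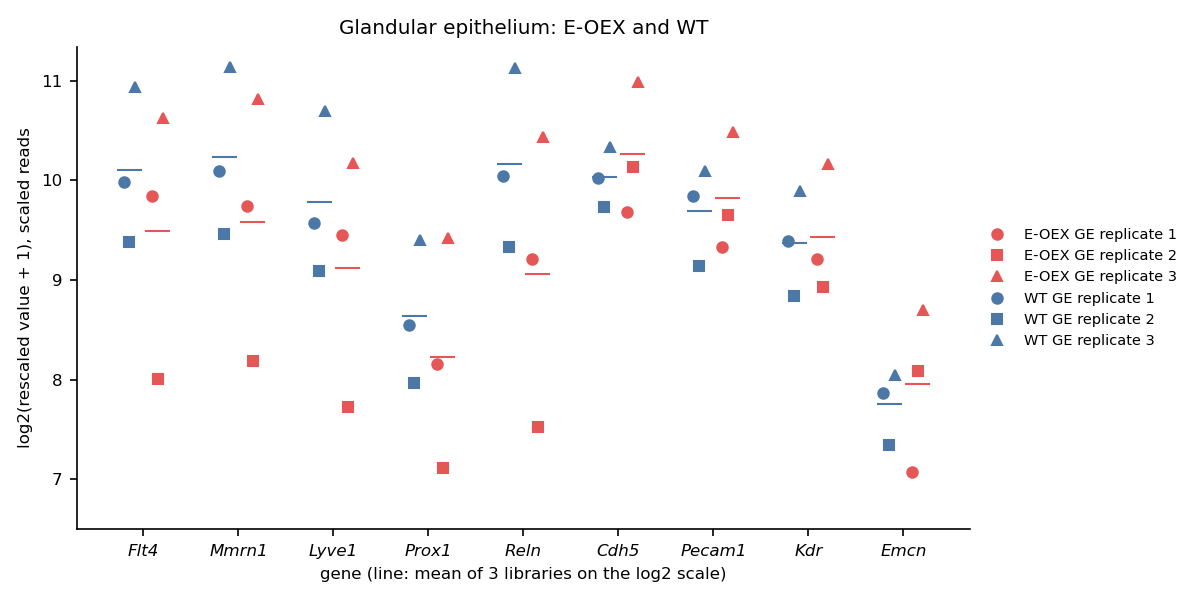
Points are single libraries on a log2(rescaled value + 1) axis in scaled reads, by gene, with red for E-OEX GE and blue for WT GE and a symbol for each replicate. For the lymphatic genes Flt4, Mmrn1, Lyve1, Prox1 and Reln the red square (E-OEX GE replicate 2) lies lowest, which it does not for Cdh5, Pecam1 or Emcn. Kdr is drawn beside them and its order is not described here.

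Other genes of vessels, muscle and other cell types give the setting of this result, where 9.72% of all genes were called higher and 13.8% lower. Of 28 other endothelial genes tested in GE, 2 were higher in E-OEX (Gpihbp1, the capillary anchor of lipoprotein lipase, log2 1.86, and Rgcc, 1.16) and 1 lower (Slco2a1, a prostaglandin transporter, -1.16). Of 13 other pericyte genes, 3 were higher: Foxs1 (1.37), the Notch target Heyl (1.04) and Gjc1 (0.87). Of 10 smooth muscle markers 8 were higher, with a list median of 1.66, and Acta2 went from 1213, 2047 and 2465 in WT GE to 6877, 5886 and 4721 in E-OEX GE. Of 4 angiogenic ligands tested, 0 passed. Of 5 epithelial markers 2 were higher, up to a log2 of 4.34, with a list median of -0.26, and of 12 stromal fibroblast markers 0 were called. Among the red cell markers Alas2 was lower (-2.39), 1 of 3 tested. Whether the muscle signal bears on the pericyte genes was not tested.

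In LE, the members were lower in E-OEX than in WT in 26 of 28 cases by the sign of the log2 difference, with a median of -1.27 against -0.09 for all genes, but none passed the test at an adjusted p under 0.05, where 10.7% of all 2600 genes did (5.12% higher, 5.54% lower). All 28 members were higher in GE in both genotypes, whereas the median over all genes mixes genes of both directions. How many of all genes had a negative sign was not counted. At an unadjusted p under 0.05 there were 6 members, all lower. DESeq2 called 4 (Adgrl4, Cdh5, Emcn and Rgs5) and edgeR 1 (Rgs5), all lower. The 10.7% is the share of all genes for limma at the adjusted p and not for these counts. Their own shares of all genes are not given here, so these counts are not read as a result about the members. The 2 positive values belonged to Egfl7, a secreted vessel guidance protein (0.33), and Ndufa4l2 (0.31). Higd1b was too low to be tested, with 5 reads in WT LE and 1 in E-OEX LE.

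Rgs5 had the largest difference, from 1.17, 79 and 29 in WT LE to 0 in all 3 E-OEX LE libraries (log2 -4.12, SE 1.19, limma adjusted p = 0.0548). Against the floor of 3 reads per library the mean was at least 13.4-fold lower, a bound that WT LE replicate 2 carried: without it the bound was 5.56-fold and the log2 difference -3.01 (limma adjusted p = 0.150). Emcn stood at 0, 17.6 and 13.3 in WT LE and at 0 throughout in E-OEX LE, at least 3.8-fold lower (2.45-fold without WT LE replicate 2), with WT LE replicate 1 overlapping. Adgrl4 stood at 1.17, 14.6 and 4.84 against 0 throughout, at least 2.54-fold lower (1.11-fold without WT LE replicate 2). Cdh5 stood at 24.5, 55.6 and 30.2 in WT LE and 8.52, 10.1 and 4.08 in E-OEX LE (log2 -2.13, SE 0.69, limma adjusted p = 0.0788). All 3 Cdh5 values in E-OEX LE lay below the lowest WT value. The same separation held for Pecam1, the platelet and endothelial adhesion molecule (21, 34.1 and 23 against 11.6, 10.1 and 7.14) and for Ptprb (113, 52.7 and 70.2 against 22.5, 31.2 and 47.9). With Cdh5 these are 3 of 28 members (10.7%), each with every WT LE library above the floor of 3 reads. Rgs5, Adgrl4 and Abcc9 were also separated, which makes 6 of 28 (21.4%). Among all genes, with no filter on reads, 14.8% were separated in this direction and 15.1% in the other. Rgs5, Adgrl4 and Abcc9 were separated only by 1 read each in WT LE replicate 1 against 0, under the floor.

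WT LE replicate 2 stood apart from the other WT LE libraries. The 28 members summed to 1362 scaled reads in it, against 530.1 and 716 in replicates 1 and 3, and 324 to 520.1 in E-OEX LE. Stromal fibroblast markers summed to 5955 there, against 326 and 2142, and mesothelial markers, of the cells that cover the outer surface of the uterus, to 3395, against 132 and 1190. Without WT LE replicate 2 the members' median difference was -0.70 with 0 called, and without WT LE replicate 1 it was -1.64 with 3 called (Adgrl4, Emcn and Rgs5, all lower). Other lists also had negative medians: -1.12 for 12 stromal fibroblast markers, with 1 called lower and 1 higher, and -1.13 for 4 mesothelial markers and -0.93 for 9 smooth muscle markers, with 0 and 1 (higher) called. Red cell markers had the lowest list median, -1.97 over 3 genes with 0 called, and their sums did not overlap, at 24.8, 11.9 and 21.4 in E-OEX LE against 95.8, 52.7 and 95.6 in WT LE. Their part in the members' difference was not tested.

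Among the lists not made of members, 1 of 25 other endothelial genes was higher in E-OEX LE, Slco2a1 (log2 4.97), which stood at 2488, 2148 and 3529 against 157, 70.2 and 53.2 in WT LE. Of 12 other pericyte genes 1 was higher, Heyl, with 105, 209.5 and 47.9 against 3.50, 4.88 and 3.63 (log2 4.37). Of 3 angiogenic ligands 1 was lower, Cxcl12 (-2.90). The signs of Slco2a1 and Heyl were opposite to that of the members' median in LE. Slco2a1 alone stood above the sum of all 28 members in E-OEX LE, which was 324 to 520.1. Whether vessel cells were the source of Slco2a1 or Heyl RNA was not tested.

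**Figure D4:**
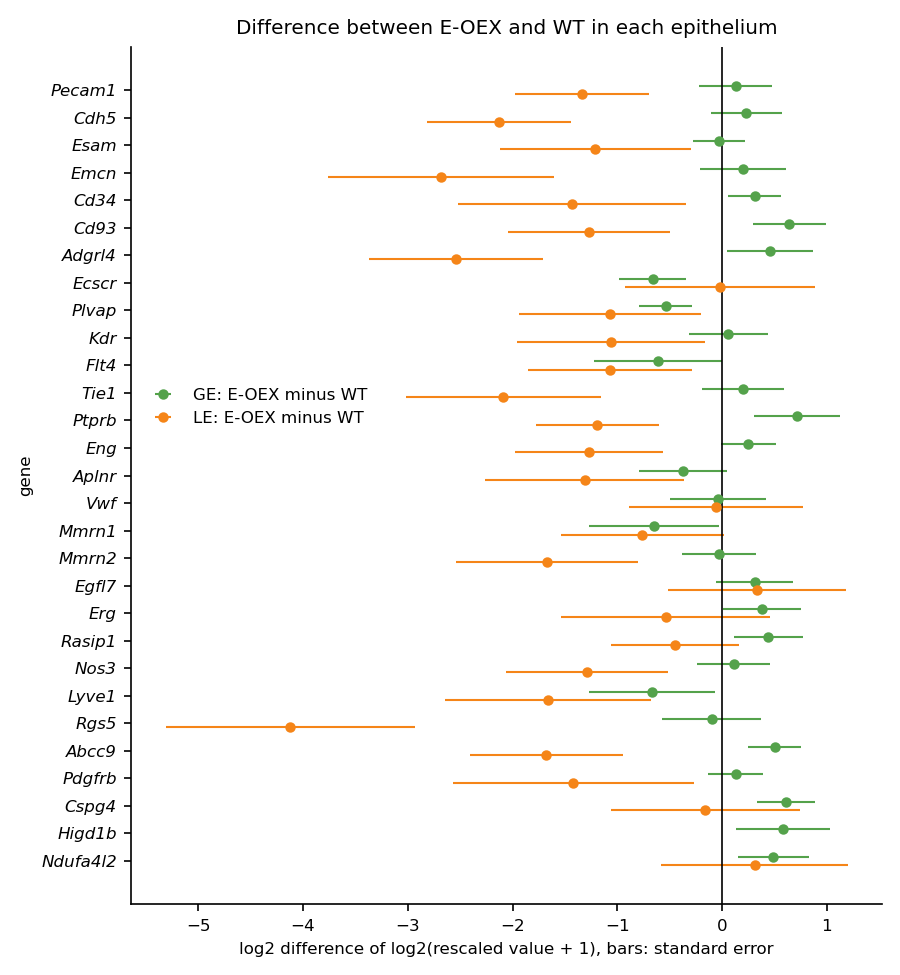
Each point is the log2 difference between E-OEX and WT for 1 gene, green in GE and orange in LE, with the standard error of the limma fit as a bar. The green points lie between -0.67 and 0.71, and 26 of 28 orange points lie left of 0, down to -4.12 for Rgs5.

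The interaction of genotype and epithelium tests whether the distance between GE and LE differed between E-OEX and WT. It was positive, a wider distance in E-OEX, for 28 of 29 members, with a median log2 of 1.59 against 0.33 for all genes. The exception was Ecscr (-0.33). Only genes listed for both genotypes enter, so a member whose distance fell below about 2-fold in E-OEX could not be tested. Flt1, Tek and Angpt2, which were higher in GE in WT, have no values in E-OEX and did not enter. All 29 members were higher in GE in both genotypes, against 57% of listed WT genes and 63.9% of listed E-OEX genes. The median over all genes therefore mixes genes of both directions. The interaction passed the test for 3 members, where 10.7% of all 2933 genes did (5.83% positive, 4.91% negative). For Cdh5, the values were 837, 741 and 1057 in WT GE, 21.8, 58.4 and 27.9 in WT LE, 861, 1262 and 2583 in E-OEX GE and 10, 9.99 and 4.32 in E-OEX LE, an interaction of 2.67 (SE 0.72, limma adjusted p = 0.0320). All 3 E-OEX LE values lay below the WT LE values, and the GE values overlapped. For Adgrl4 (184, 85.3 and 146 in WT GE, 1.04, 15.4 and 4.47 in WT LE, 156, 217 and 461 in E-OEX GE, 0 in E-OEX LE) it was 3.42 (SE 1.0, limma adjusted p = 0.0448). For Abcc9 (177, 228 and 228 in WT GE, 1.04, 6.14 and 1.12 in WT LE, 361, 359.8 and 525 in E-OEX GE, 0 in E-OEX LE) it was 2.61 (SE 0.77, limma adjusted p = 0.0455). Adgrl4 and Abcc9 rest on 20 and 8 reads in WT LE and on none in E-OEX LE, so their fitted values depend on the pseudocount.

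The interaction calls were not stable to the choice of libraries or scaling. The count was 0 without any 1 of WT LE replicates 2 and 3, WT GE replicates 1, 2 and 3, and E-OEX GE replicates 2 and 3. It was 3 without E-OEX GE replicate 1, 1 without E-OEX LE replicate 2, 2 without E-OEX LE replicate 1 or 3, and 9 without WT LE replicate 1. The median without WT LE replicate 2 was 0.85. With TMM scaling of the recovered reads 0 were called, edgeR called 4 and DESeq2 10. The 10.7% of all genes given above is for the main limma fit and not for these alternatives. Their own shares of all genes are not given here, so none of these counts is read as a result about the members. Smooth muscle markers (4 of 10 called, all positive, median 2.31) and stromal fibroblast markers (1 of 12, median 1.52) were also positive in the interaction. Among other endothelial genes 2 of 28 were positive (Gpihbp1, 3.34, and Dll4, a Notch ligand, 2.58) and 1 negative (Slco2a1, -5.84), and among other pericyte genes 1 of 13 was negative (Heyl, -3.02).

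Between U-OEx LE and WT LE, Tek and Flt1 were the members with the largest called increases. In all, 4 members were higher (Flt1, Tek, Pecam1 and Ndufa4l2) and 1 was lower (Lyve1), 5 of 31 tested, where 56.9% of all 5949 genes passed (29.1% higher, 27.8% lower). The median over the members was -0.21, against 0.09 for all genes, and it was 0.29 without WT LE replicate 2. DESeq2 and edgeR also called 5 each, 4 of them shared, with Rgs5 lower in place of Ndufa4l2. The 56.9% is the share of all genes for the limma test alone, and the shares for DESeq2 and edgeR are not given here. This comparison shares its WT LE libraries with the E-OEX comparison in LE.

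Flt1 (chr5:147561604-147726011, GRCm38, as are the positions that follow) encodes VEGF receptor 1, which exists in membrane and soluble forms that these values do not separate. It stood at 288, 196 and 440.4 scaled reads in U-OEx LE and at 39.4, 68.4 and 51.6 in WT LE. All 3 U-OEx values lay above all WT values, and the fitted difference was 2.47 on the log2 scale (SE 0.40, limma adjusted p = 0.00108). The values of 32.7% of all genes were separated in this direction and those of 31.2% in the other. It was called in all 16 alternatives that could test it, with values from 2.05 to 2.82. On the deposited scale, which was set separately for U-OEx and WT, its U-OEx LE mean was 306 ± 121 (SD, n = 3). The WT GE mean was 161 ± 32.2 (SD, n = 3), and this pair of groups was neither rescaled together nor tested.

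Tek (chr4:94739289-94874976) encodes Tie2, the angiopoietin receptor. It stood at 38.3, 164 and 16.5 in U-OEx LE and at 0, 13.9 and 9.87 in WT LE. The groups did not overlap, and replicate 2 of U-OEx LE stood far above the rest (log2 3.15, SE 1.17, limma adjusted p = 0.0486). The call was lost without WT LE replicate 1 (1.93) or 3 (3.66) and without U-OEx LE replicate 1 (3.33), 2 (2.26) or 3 (3.91), and also on the deposited scale, with a pseudocount of 0.1, with quantile normalization and with DESeq2 size factors. The adjusted p ranged from 0.0136 to 0.169 over 16 alternatives. Its ligand Angpt2 stood at 36.4, 106 and 47.4 against 25.5, 15.9 and 45.0 (log2 1.08, SE 0.57, limma adjusted p = 0.136), and was highest in the same U-OEx LE library as Tek.

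The other receptors did not pass the test. Kdr, VEGF receptor 2 and the main signalling receptor for VEGF-A, stood at 10.3, 15.8 and 29 in U-OEx LE and 3.47, 40.6 and 15.4 in WT LE (log2 0.30). Flt4 (0.45), Eng, a TGF-beta co-receptor (-0.13), Ptprb (-0.68), Aplnr, the apelin receptor (-0.79), and Tie1, the orphan partner of Tie2 (-0.89), all overlapped between the groups.

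Pecam1 (chr11:106654217-106750628), found on endothelium, platelets and leukocytes, stood at 121, 49.2 and 121 in U-OEx LE and at 20.8, 34.7 and 20.8 in WT LE (log2 1.82, SE 0.49, limma adjusted p = 0.0131). All U-OEx values lay above all WT values, and the call was lost without U-OEx LE replicate 1 (1.69) or 3 (1.68). Cdh5, the junction protein by which endothelium is defined, stood at 16.8, 23.7 and 7.74 against 24.3, 56.5 and 27.4, below WT in all 3 libraries (log2 -1.14, SE 0.57, limma adjusted p = 0.122). Of 14 leukocyte markers, only 5 are listed for WT and could be tested. Of these, 4 were called higher, where 29.1% of all genes were, with a list median of 1.60. The 5 markers summed to 2748 to 5313 in U-OEx LE against 1166 to 2454 in WT LE, and none of them was at 0. Their part in the Pecam1 difference was not tested. Cd93 (0.68), Ecscr (0.42), Plvap (0.27), Emcn (-0.73), Esam, an adhesion molecule of tight junctions (-0.77), Adgrl4 (-0.91) and Cd34, a sialomucin of endothelium and of some stromal cells (-1.09), were not called.

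Lyve1 (chr7:110850607-110863239) stood at 1.87, 0 and 1.94 in U-OEx LE and at 12.7, 21.8 and 4.39 in WT LE (log2 -2.55, SE 0.73, limma adjusted p = 0.0178). It rests on 4 reads in U-OEx LE and 37 in WT LE, a ratio of 0.0929 (95% exact interval 0.024 to 0.259, counting error only), and the call was lost without U-OEx LE replicate 2 (-1.98). The other lymphatic genes did not pass in this direction: Flt4 was at 24.3, 36.9 and 15.5 against 15, 28.7 and 12.1, Mmrn1 differed by 0.01, and Prox1 was called higher (2.42), from 1.16, 12.9 and 6.58 to 16.8, 36.0 and 52.3. Ndufa4l2, a mitochondrial protein abundant in pericytes, had 18 reads in U-OEx LE and 2 in WT LE, a ratio of 7.73 (95% exact interval 1.85 to 68.7, counting error only), and passed the test although the groups overlapped (log2 1.97, SE 0.73, limma adjusted p = 0.0477). Its call was lost without WT LE replicate 1 (1.73) or 3 (1.72) and without U-OEx LE replicate 2 (2.01) or 3 (1.48). It was also lost with a pseudocount of 5 (0.84), on the deposited scale, with DESeq2 size factors, with the replicate block (limma adjusted p = 0.0561), with edgeR and with DESeq2, so that it passed in 6 of 16 alternatives.

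The defining pericyte genes were near the floor in U-OEx LE. Rgs5 held 7 reads over the 3 libraries, Cspg4, the NG2 proteoglycan, 5, Abcc9 2 and Higd1b 0, and Pdgfrb, the receptor that recruits pericytes, stood at 5.60, 3.52 and 3.87 scaled reads. In WT LE, Rgs5 stood at 1.16, 80.3 and 26.3 and Pdgfrb at 0, 21.8 and 8.78, again with WT LE replicate 2 the highest. None of these 5 was called (log2 -2.48 for Rgs5, limma adjusted p = 0.112, -1.17 for Abcc9, -0.92 for Cspg4 and -0.21 for Pdgfrb, with Higd1b not tested), though edgeR and DESeq2 called Rgs5 lower, as did limma without WT LE replicate 1. The secreted proteins Mmrn2 (0.82), Egfl7 (0.45), Mmrn1 (0.01) and Vwf (-0.63) and the intracellular proteins Erg, an ETS factor of endothelium (0.07), Rasip1 (-0.64) and Nos3, endothelial nitric oxide synthase (-1.53), were not called.

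The number of members called without 1 library ranged from 2 to 7. It was 2 without U-OEx LE replicate 2 or 3, 3 without U-OEx LE replicate 1 or WT LE replicate 3, 6 without WT LE replicate 2 and 7 without WT LE replicate 1. Flt1 was among them each time.

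**Figure D5:**
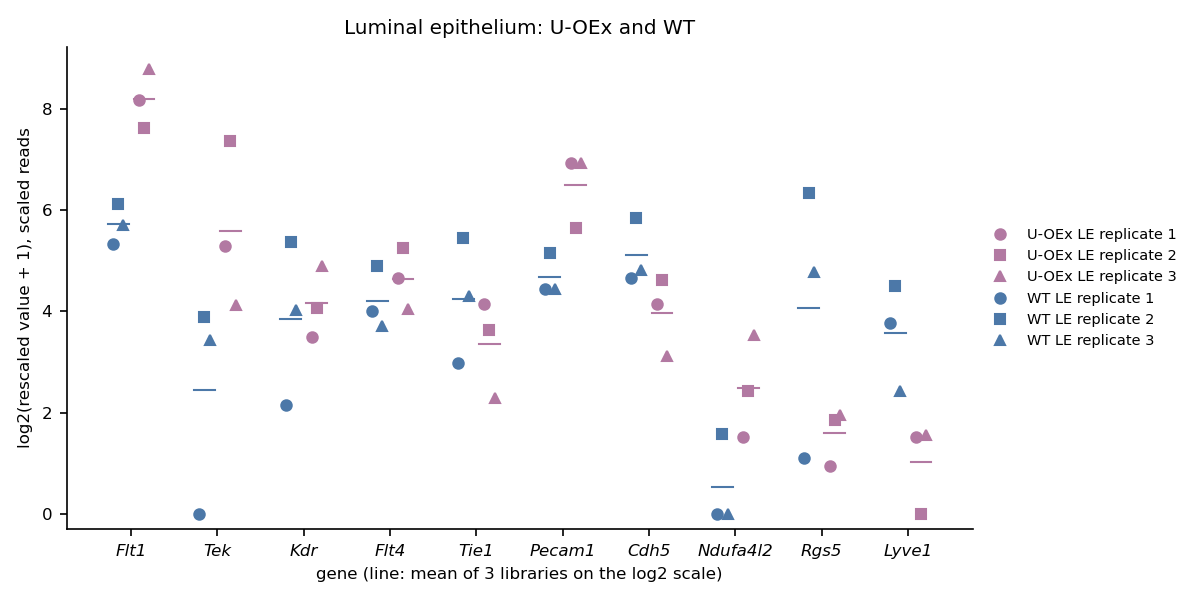
Points are single LE libraries on a log2(rescaled value + 1) axis in scaled reads, by gene, purple for U-OEx and blue for WT, with a symbol for each replicate and a line at the mean. Flt1, Tek and Pecam1 are higher in all 3 U-OEx libraries than in any WT library, Lyve1 is lower in all 3, and Kdr, Flt4 and Tie1 overlap.

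Genes of the same pathways outside the set were also tested in U-OEx LE. Of 31 other endothelial genes 11 were higher and 2 lower, where 29.1% and 27.8% of all genes were. The largest differences were those of Cyyr1 (log2 5.15), Ramp2, the adrenomedullin co-receptor (4.60), Slco2a1 (4.51) and Vcam1, which binds leukocytes (3.63). Gata2 (-2.46) and Dll4 (-1.82) were lower. Gata2, at 1968 to 2216 in U-OEx LE and 6129 to 22554 in WT LE, was far above the level of any member, and epithelium of the uterus is known to express it. Of 13 other pericyte genes 7 were higher and 1 lower, with Heyl (5.45), Foxs1 (5.10) and Ebf1 (2.87) the furthest up and Gja4 (-2.49) down. Foxs1 was at 0 in all WT LE libraries and at least 10.8-fold higher in U-OEx LE. Of 6 angiogenic ligands 3 were higher (Pdgfc 3.41, Sema3f 2.60 and Ang 2.29) and 2 lower (Cxcl12 -1.97 and Pdgfa -0.76). The median was -1.33 for 12 stromal fibroblast markers (1 called higher, 2 lower) and -0.62 for 9 smooth muscle markers (1 higher, 2 lower), and 4 mesothelial markers had a median of -1.57 with 0 called. Of 8 epithelial markers 4 were lower and 1 higher, and they summed to 66262, 69476 and 55252 in U-OEx LE against 123680.3, 98926 and 100934 in WT LE, with no overlap. The part of these lists in the members' differences was not tested. The stromal gene that was higher was Postn, which encodes the matrix protein periostin, at 6074 to 20611 against at most 19.8 in WT LE.

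Between U-OEx LE and E-OEX LE, 2 of 27 members were higher in U-OEx, where 15% of all 4275 genes passed (6.97% higher, 8.05% lower). The median was 0.74 against 0.06 for all genes. The libraries of each group here are also those of its comparison with WT LE. Pecam1 stood at 125, 51.3 and 116 in U-OEx LE and 13.5, 12.3 and 8.53 in E-OEX LE, with no overlap (log2 2.90, SE 0.52, limma adjusted p = 0.0122). Emcn also passed (limma adjusted p = 0.0482), at 2.89, 2.75 and 2.78 against 0 throughout, but with 9 reads in U-OEx LE and none in E-OEX LE both groups are at or under the floor of 3 reads per library and no fold is given. The values of 8 members did not overlap, all higher in U-OEx (20.1% of all genes, with 18.1% lower, without a filter on reads). Besides Pecam1 and Emcn these were Mmrn2 (28.9, 14.6 and 6.48 against 3.61, 0 and 4.87), Cd93 (54.8, 40.3 and 35.2 against 24.3, 15.6 and 4.87), Kdr, Plvap, Pdgfrb and Rgs5. Rgs5 rests on 7 reads in U-OEx LE and none in E-OEX LE, so it is under the floor as well. The number of members called was 0 without U-OEx LE replicate 1 or 3. It was 1 without U-OEx LE replicate 2 or E-OEX LE replicate 2 or 3. It was 2 without E-OEX LE replicate 1 (Pecam1 and Cd93). The median without E-OEX LE replicate 3 was 0.39. The leukocyte gene Itgam was higher as well (log2 3.23, 1 of 2 tested), and its part in the Pecam1 difference was not tested. Cdh5 stood at 17.3, 24.7 and 7.40 against 9.91, 12.3 and 4.87 and was not called (0.74). Flt1, Tek and Angpt2 could not be compared between the overexpressing groups, since they were not analysed in E-OEX.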

How the data were processed

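The authors' deposited values are a signal, read counts divided by 1 factor per library, which was read from the values: whole reads were recovered within 0.01 of a read for 100% of values in every library. The builds GRCm38 and mm10 are named in the submitters' processing notes. The aligner, the counting tool and its strand setting are not given in the sources used here, so overlapping and antisense genes cannot be separated. Lengths and positions are from GENCODE M21, which matched 33 of 33 members.

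Comparisons of genotypes within LE or GE used recovered reads of shared genes rescaled with TMM, because the tables were scaled separately, and the GE against LE comparisons and the interaction used deposited values. The test was limma 3.58.1 (R 4.3.3, trend) on log2(value + 1), for genes with a mean of at least 1, adjusted by Benjamini-Hochberg over all genes, called under 0.05. Fold changes on this scale understate low genes. Members tested between genotypes were all higher in GE. Medians over all genes mix genes of both directions and are not a matched baseline for them. Alternatives were edgeR 4.0.16, DESeq2 1.42.0, pseudocounts 0.1 and 5, filters, scalings, 1 fit over all groups, a replicate block and leaving out each library. A floor of 3 reads per library set lower bounds, for counting error only. Replicates differed by more than sampling noise (chi-square 16.6 to 182 per degree of freedom).

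The members and all lists were chosen with earlier results of these data known. Every member is named, called members get values in every library, and of other lists at most the 4 with the largest differences are named, while Prox1, Reln, Acta2, Gata2, Dll4 and Pdgfa were named after their values were seen. Clec14a, Flt1, Tek and Angpt2 were left out where a table does not list them.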

Additional observations from a re-analysis of the deposited data

Results flagged for a closer look

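The distance between GE and LE differed between E-OEX and WT, by the test of the interaction, for 3 of the 29 members analysed in both genotypes, where 10.7% of all genes passed the same test, so the count is near that of all genes. With TMM scaling, and in 1 fit over all groups, 0 members passed. The interaction was 2.67 for Cdh5, 3.42 for Adgrl4 and 2.61 for Abcc9 on the log2 scale, each a wider distance in E-OEX. Genes less than about 2-fold apart in either genotype were not listed for it and could not enter. Stromal fibroblast and smooth muscle markers had positive medians in the same test (1.52 and 2.31), and their part in the members' result was not tested. Groups of 3 libraries are too small for a test of single outlying libraries.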

How the results depend on the processing

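The number of members called in E-OEX GE against WT GE was 0 and became 2 on the deposited scale, and 0 to 2 without 1 library. In E-OEX LE against WT LE it was 0 and became 1 with a pseudocount of 0.1, with edgeR, with quantile normalization and with the replicate block, 4 with DESeq2, 5 in 1 fit over all groups, and 0 to 3 without 1 library. In U-OEx LE against WT LE it was 5 and became 3 with a minimum mean of 10, on the deposited scale, with DESeq2 size factors and in 1 fit over all groups, which tests no Flt1 or Tek, and 2 to 7 without 1 library. In U-OEx LE against E-OEX LE it was 2 and became 1 with a minimum mean of 10, a pseudocount of 5, edgeR, DESeq2, quantile normalization, DESeq2 size factors and the replicate block, and 0 to 2 without 1 library. The interaction count was 3 and became 1 with a pseudocount of 5, 10 with DESeq2, 0 with TMM scaling and in 1 fit over all groups, and 0 to 9 without 1 library. The median of E-OEX GE against E-OEX LE (6.41) was 5.50 with quantile normalization, 5.48 with DESeq2 size factors and 5.47 in 1 fit over all groups. The causes were not tested. The counts are given without the share of all genes at each setting, so they describe stability alone.

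Signs turned for Flt4, Mmrn1 and Lyve1 in GE without E-OEX GE replicate 2, with values without 1 library from -1.18 to 0.13, -1.27 to 0.05 and -1.19 to 0.03. They also turned for Egfl7 in E-OEX LE against WT LE with edgeR (-0.13), with DESeq2 (-0.09), without WT LE replicate 1 (-0.22) and without E-OEX LE replicate 2 (-0.07; -0.22 to 1.21 without 1 library), and for Ecscr in the interaction without E-OEX LE replicate 1 (0.57) or E-OEX GE replicate 1 (0.02), with a range of -1.08 to 0.57 without 1 library.

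No pairing of the libraries by the replicate numbers in the titles was seen. In no comparison was the correlation of same-numbered deviations over 0.1 for all 3 numbers (-0.284 to 0.188 over 6 comparisons). No comparison had every library correlate best with its own number. These correlations cannot tell whether LE and GE libraries of 1 number came from the same mouse, and the main fits treat all libraries as independent. With the replicate block the count was 0 in GE, 1 in E-OEX LE, 5 in U-OEx LE against WT LE (4 of them shared, with Ndufa4l2 lost and Rgs5 called lower), 1 in U-OEx LE against E-OEX LE and 2 in the interaction, with 1 of those 2 shared with the fit without it. Low reads limit the LE comparisons: 4 of 29 members had no read in E-OEX LE and 5, these included, had 3 or fewer in every library.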
